A study of Mus musculus with 4 samples.

Results

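The genes described here are 9 lipid regulators of the LXR, PPAR and RXR families, Abca1, Abcg1, Nr1h2, Nr1h3, Pparg, Ppard, Ppargc1b, Rxra and Rxrb, chosen by name and read on every probe set annotated to them. A probe set is the group of short array probes that together read 1 transcript region. Of the 9 genes, 8 were named by 11 of the 22690 probe sets of the table. Nr1h2, which encodes LXRbeta, was named by none and is not analysed here. Ppard lay under the floor on every array, so 7 genes on 10 probe sets were measured, of 9473 measured genes in all. The floor is the 40th percentile of all signals, a signal of 33.3, and values at or under it have no order.

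Total RNA was measured in CD11c+ dendritic cells of mice labelled IL10-/- after 6 h with SEA/LPS, with LPS, with SEA or in media alone, on 1 array per group. LPS is bacterial lipopolysaccharide, sensed through TLR4. SEA is not expanded in the labels, and is usually short for soluble egg antigen (of Schistosoma mansoni) in this kind of work. All groups carry the same IL10-/- label and the lot, and the labels give no dose, tissue of origin, age, number of animals or pooling. With 1 array per group no difference has a replicate check and no test was possible, so sizes alone are given. A gene counts as higher or lower when its arrays differ by at least 2-fold and the brighter one passes the floor.

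LXRs are nuclear receptors that bind oxysterols and switch on genes for cholesterol export, among them the transporter genes Abca1 and Abcg1. PPARs are nuclear receptors for fatty acids and their derivatives that control lipid uptake, storage and oxidation, and Ppargc1b encodes PGC-1beta, a coactivator that drives mitochondrial genes with them. Both kinds of receptor bind DNA as a pair with an RXR, encoded by Rxra and Rxrb, and in macrophages and dendritic cells they are known to restrain inflammatory genes as well as to set lipid handling.

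The 4 arrays had equal 2% trimmed mean signals (150.1 each), and 57.3% to 61.1% of probe sets lay above the floor. RNA integrity, read as Gapdh signal at the 3' over the 5' end, gave a ratio of 3.12 with SEA/LPS, 2.42 with LPS, 2.69 with SEA and 2.21 in media, and the same ratio of Actb was 1.26 with SEA/LPS, 1.24 with LPS, 1.37 with SEA and 1.20 in media. The Il10 probe set read 93.0 with SEA/LPS, 303.6 with LPS, 52.1 with SEA and 37.9 in media, above the floor on all 4 arrays and 8.01-fold higher with LPS than in media. The sources used here do not say which part of Il10 the label's allele lacks or which part the probe set reads, so the signal does not show whether the label holds, and every group is given here by its label. Of 12 dendritic cell markers, 11 lay above the floor with SEA/LPS and 12 on each of the other arrays, Itgax (CD11c) among them. All 6 named macrophage markers were above the floor on all 4 arrays. Adipocyte markers, listed because Pparg is abundant in fat, had 1 of 4 named members above the floor on each array, with Adipoq, Cidec and Lep under it throughout and a summed signal of 124 with SEA/LPS, 143 with LPS, 132 with SEA and 96.7 in media. T cell markers had 0 or 1 of 4 named members above the floor on an array (Cd8a), with Cd3d, Cd3e and Cd3g under it throughout. B cell markers had 1 or 2 of 4, with Ms4a1 above it on all 4 arrays and Cd79b and Pax5 on none. NK cell markers had 1 or 2 of 4, with Klrd1 and Gzmb on none and Klrk1 on all (105.8 with SEA/LPS, 112.4 with LPS, 68.4 with SEA and 62.6 in media). Mast cell markers had 2 or 3 of 4, with Kit on all arrays and Mcpt4 on none. Neutrophil markers had 3 or 4 of 6, with S100a8, Ngp and Ltf on all arrays and S100a9 and Camp on none. S100a8 read 182.1 with SEA/LPS, 154.7 with LPS, 90.1 with SEA and 85.1 in media, 2.14-fold higher with SEA/LPS than in media. The part of such cells in the results that follow was not tested. In RNA from a whole sample, fewer cells of a type and less RNA per cell cannot be told apart.

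**Figure D1:**
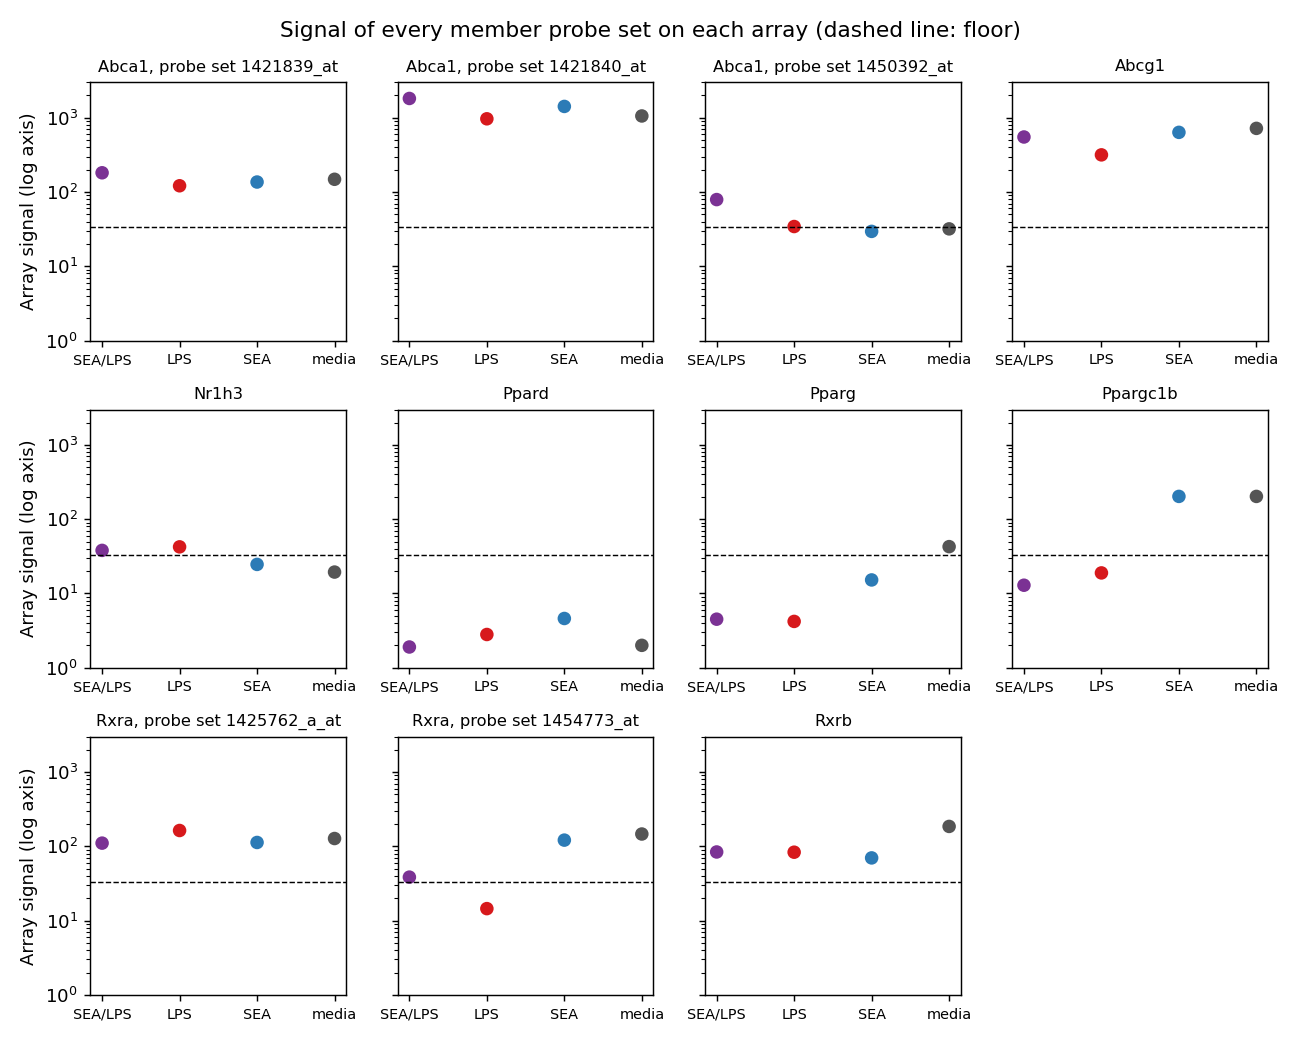
Array signal (log axis) of each of the 11 member probe sets with SEA/LPS, LPS, SEA and media, 1 point per array, with the floor of 33.3 as a dashed line. Ppargc1b reads 12.9 and 18.9 on the arrays with LPS and 202.7 and 202.6 on those without, and Rxrb is highest in media.

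Among the receptors, the LXR gene that could be read was dim. Nr1h3, which encodes LXRalpha, read 38 with SEA/LPS, 42.4 with LPS, 24.6 with SEA and 19.4 in media. It passed the floor only on the 2 arrays with LPS, so its differences against media are bounds, at least 1.14-fold higher with SEA/LPS and at least 1.27-fold higher with LPS, short of 2-fold. With the floor at the 20th percentile its LPS difference over media was 1.13 log2, past 2-fold. Between SEA/LPS and LPS it differed by -0.16 log2, and this small value was 0.04 under quantile normalization and 0.08 when scaled to the hybridisation controls.

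Both PPAR genes were at or near the floor. Pparg, which encodes the receptor of adipogenesis and of lipid handling in myeloid cells, read 4.5 with SEA/LPS, 4.2 with LPS, 15.2 with SEA and 42.7 in media. Only media passed the floor, so each of the other arrays is at least 1.28-fold lower and none of these bounds reaches 2-fold. With the floor at the 20th percentile the SEA difference over media was -1.49 log2. SEA/LPS and LPS lay under that floor too, so their differences over media, -2.12 log2 each, are bounds. Ppard, which encodes the broadly expressed PPARdelta, read 1.9 with SEA/LPS, 2.8 with LPS, 4.6 with SEA and 2.0 in media, all under the floor, and no fold is given for it. These low readings say only that the probe sets gave no signal above the floor.

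Ppargc1b lay under the floor on both arrays with LPS and well above it on the others. Its probe set read 12.9 with SEA/LPS, 18.9 with LPS, 202.7 with SEA and 202.6 in media. The arrays fell into 2 pairs, with both arrays that had LPS under the floor and the SEA and media arrays nearly equal (0.0007 log2 apart). It was at least 6.08-fold lower with LPS than in media and at least 6.08-fold lower with SEA/LPS than in media. These bounds have no order against the other bounds among the members, such as that of Rxra on its probe set 1454773_at. SEA/LPS and LPS cannot be ordered, since both lie under the floor. The 2 arrays without LPS brought it past the floor, and 1 probe set reads it.

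The RXR genes differed between probe sets and between stimuli. Rxrb, which encodes RXRbeta, read 84.0 with SEA/LPS, 83.4 with LPS, 69.9 with SEA and 185.5 in media on its single probe set. Media stood apart, and the 3 stimulated arrays lay close together. Rxrb was 2.65-fold lower with SEA, 2.22-fold lower with LPS and 2.21-fold lower with SEA/LPS, each over media. Its SEA difference was the 6th lowest of 9473 genes, with bounds ranked at their bound, while SEA/LPS and LPS differed by 0.01 log2. The value for SEA/LPS over media fell short of 2-fold at -0.94 log2 when scaled to the 75th percentile and at -0.90 under quantile normalization, and those for SEA and LPS stayed past 2-fold under every scaling tried. All 3 differences share the media array, so they rest on 1 reading of it.

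Rxra, which encodes RXRalpha, the main RXR of myeloid cells, had 2 probe sets that disagreed. Probe set 1425762_a_at, the brighter on average, read 110.5 with SEA/LPS, 163.5 with LPS, 112.8 with SEA and 127.5 in media. Probe set 1454773_at read 38.5 with SEA/LPS, 14.5 with LPS, 121.3 with SEA and 146.6 in media. On the first the LPS array was the highest of the 4, and on the second the LPS array was the lowest and under the floor. LPS over media was 0.36 log2 on the first, which turned to -0.19 when scaled to the hybridisation controls, and at least 4.40-fold lower on the second. SEA/LPS over media was -0.21 log2 on the first, and 0.02 under quantile normalization, against 3.81-fold lower on the second. SEA over media was similar on both, at -0.18 and -0.27 log2. A gap between probe sets of 1 gene as wide as the 2.50 log2 of Rxra for LPS over media occurred in 14 of 3311 genes with several measured probe sets (0.423%), whose median gap was 0.51. No direction is therefore given for Rxra under LPS.

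RefSeq (build GRCm38.p6) lists 2 starts for Rxra, and the 250 bases before each are shown because the 2 probe sets disagree, although the sources used here do not say which transcripts each probe set reads. Capitals mark the GC box GGGCGG in the window before the first start and the receptor half-site AGGTCA in the window before the second, each searched on both strands.
Rxra first start, chr2:27676951-27677200, plus strand: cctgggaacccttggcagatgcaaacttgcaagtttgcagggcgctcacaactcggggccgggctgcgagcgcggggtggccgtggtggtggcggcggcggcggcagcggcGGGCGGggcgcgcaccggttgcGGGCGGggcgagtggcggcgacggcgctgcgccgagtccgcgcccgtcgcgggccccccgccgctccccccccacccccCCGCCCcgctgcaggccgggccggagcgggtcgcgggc
Rxra second start, chr2:27709042-27709291, plus strand: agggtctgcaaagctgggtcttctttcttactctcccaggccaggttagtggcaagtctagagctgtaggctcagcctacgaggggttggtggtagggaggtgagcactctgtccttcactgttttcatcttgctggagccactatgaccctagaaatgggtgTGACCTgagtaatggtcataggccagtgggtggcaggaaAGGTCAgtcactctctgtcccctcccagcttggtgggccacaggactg
The first window has 81.2% G and C with 3 GC boxes and 0 half-sites, and the second has 55.2% G and C with 0 GC boxes and 2 half-sites. Of 32851 such windows of the mouse genome, 32.7% hold a GC box and 14.0% a half-site. A match is a description of the letters and does not show that a factor binds there.

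The 2 transporter genes read higher with SEA/LPS than with LPS, by less than 2-fold on the probe sets that stand for them. Abca1 encodes the transporter that loads cholesterol onto lipid-poor apolipoprotein A-I. Its brightest probe set, 1421840_at, read 1819.3 with SEA/LPS, 968.2 with LPS, 1421.2 with SEA and 1057.3 in media. The 2 arrays with SEA were the highest. SEA/LPS was 1.88-fold higher than LPS and 1.72-fold higher than media, SEA was 1.34-fold higher than media, and LPS over media was -0.13 log2, and 0.01 with the arrays scaled to their 75th percentiles.

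The other probe sets of Abca1 put SEA/LPS highest too. Probe set 1421839_at read 181.6 with SEA/LPS, 121.4 with LPS, 136.3 with SEA and 148.4 in media, so SEA/LPS was 1.496-fold higher than LPS, while SEA over media was -0.12 log2. Probe set 1450392_at read 79.1 with SEA/LPS, 34.3 with LPS, 29.5 with SEA and 31.9 in media. On it SEA/LPS was 2.31-fold higher than LPS, whose reading lay just above the floor of 33.3, and the SEA and media arrays lay under it. With no floor the difference between SEA/LPS and LPS was 0.92 log2, short of 2-fold. All 3 probe sets thus had SEA/LPS above LPS, under every scaling tried, and they split on SEA over media.

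Abcg1, which encodes the transporter that passes cholesterol to high-density lipoprotein, read 550.8 with SEA/LPS, 316.5 with LPS, 636.0 with SEA and 719.6 in media. The LPS array stood lowest. LPS was 2.27-fold lower than media, SEA/LPS was 1.74-fold higher than LPS, and SEA over media was -0.18 log2. Set against SEA instead of media, SEA/LPS was 1.15-fold lower. Ordered from the highest of 9473 genes, again with bounds at their bound, SEA/LPS over LPS stood at rank 194 for Abca1 and rank 304 for Abcg1. When scaled to the hybridisation controls these differences passed 2-fold, at 1.15 log2 for Abca1 and 1.04 for Abcg1, where the median of all genes was 0.11. They were smallest under quantile normalization, at 0.84 log2 for Abca1 and 0.70 for Abcg1. The summed signal of the dendritic cell markers was 28104 with SEA/LPS, 38066 with LPS, 30687 with SEA and 29688 in media. The brightest genes weigh most in such a sum. H2-Ab1 read 3436.7 with SEA/LPS and 8108.7 with LPS, H2-Eb1 4304.8 and 7084.8, and Itgax 2093.3 and 1850.7. Of the 12 markers 10 were lower with SEA/LPS than with LPS and 2 higher. The summed signal of the macrophage markers was 7460 with SEA/LPS, 6472 with LPS, 7670 with SEA and 7732 in media. The part of these markers in the transporter differences was not tested.

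The promoter of Abca1 is shown because Abca1 is a textbook LXR target whose promoter is known to hold an LXR element. Below are the 250 bases before its start in RefSeq. Capitals mark matches on either strand to a loose LXR-like direct repeat (GGTNA and GGTCA with 5 bases between), the E-box CACGTG, the GC box GGGCGG and the TATA box TATAAA.
Abca1, GRCm38.p6 chr4:53159896-53160145, minus strand: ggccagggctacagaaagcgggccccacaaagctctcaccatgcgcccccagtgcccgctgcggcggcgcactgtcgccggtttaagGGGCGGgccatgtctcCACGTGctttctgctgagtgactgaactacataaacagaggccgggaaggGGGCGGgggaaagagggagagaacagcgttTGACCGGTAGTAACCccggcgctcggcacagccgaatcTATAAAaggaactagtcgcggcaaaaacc
The direct repeat lies on the opposite strand with its match starting at base -67, counted from -1 just before the start, the E-box at -147, the 2 GC boxes at -163 and -97 and the TATA box at -29, with no overlap among them. The strict forms, AGGTCA repeated with 4 bases between for LXR (DR4) or 1 base for PPAR (DR1), had no match in any of the 12 upstream windows of the 7 members that the RefSeq table lists. Of all 32851 windows 0.0152% hold the strict DR4, 0.0335% the DR1, 0.177% the looser repeat, 6.02% the E-box and 12.4% the TATA box. The looser repeat was written after the Abca1 sequence had been read, so its match there is by construction.

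**Figure D2:**
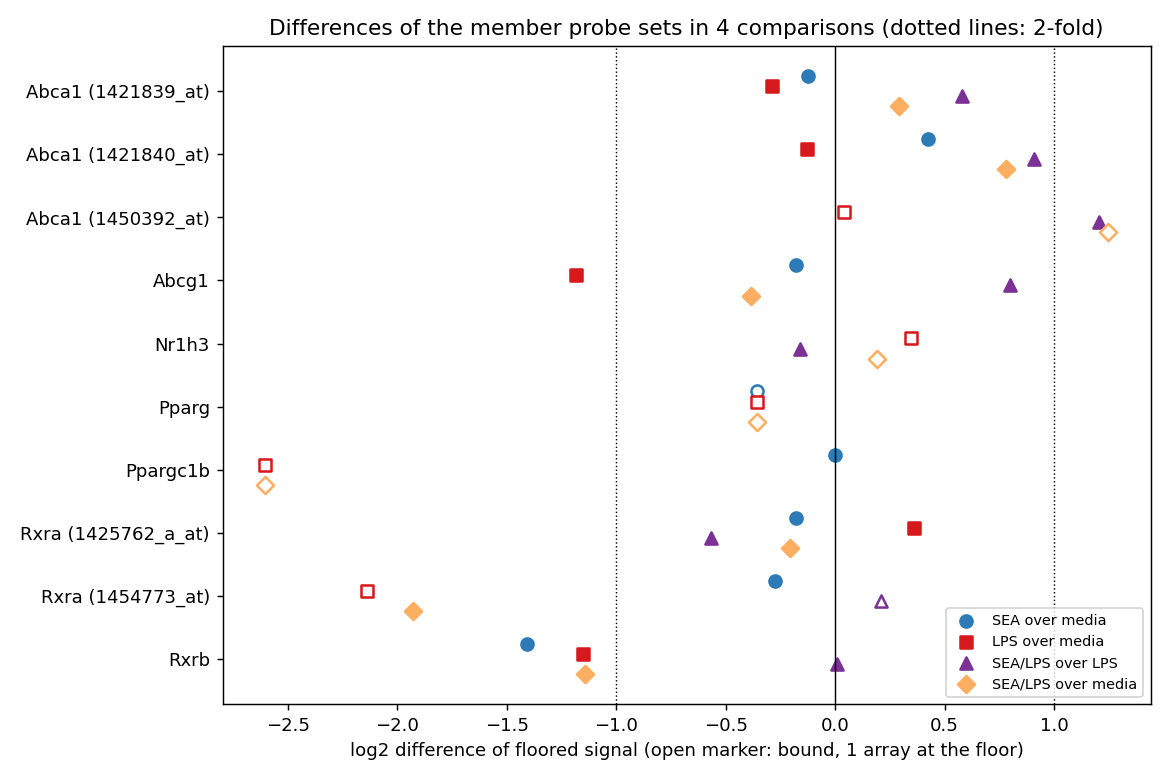
Differences in log2 of floored signal (horizontal axis) for the 10 member probe sets above the floor, in 4 comparisons, with dotted lines at 2-fold and open markers where 1 array was at the floor. Ppargc1b lies at -2.61 for both LPS comparisons over media, and Abca1 and Abcg1 lie right of 0 for SEA/LPS over LPS on every probe set.

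By comparison, 1 of the 7 measured members was at least 2-fold lower with SEA than in media (Rxrb), against 0.633% of all genes, and 0 were higher, against 0.644%. With LPS over media 3 were lower (Abcg1, Ppargc1b and Rxrb), against 8.43%, and 0 higher, against 6.06%. With SEA/LPS over media 2 were lower (Ppargc1b and Rxrb), against 7.05%, and 0 higher, against 4.54%. Between SEA/LPS and LPS 0 were higher, against 1.39%, and 0 lower, against 3.47%. Nr1h3, Pparg and Ppargc1b passed the floor only through the arrays where they are high, so these counts describe the members and support nothing.

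The SEA difference with LPS minus the SEA difference without it was 1.42 log2 for Rxrb, 0.98 for Abcg1 and 0.48 for Abca1 on its brightest probe set. The other probe sets of Abca1 gave 0.70 (1421839_at) and 1.21 (1450392_at, with SEA and media under the floor). Rxra gave -0.39 on 1425762_a_at and 0.48 on 1454773_at, where the LPS array was under the floor. Nr1h3, Pparg and Ppargc1b each had arrays under the floor, and no value is given for them. Of all genes, 3.16% lay at 1 log2 or more above 0 and 6.54% at 1 log2 or more below 0. For Rxrb the value comes from a lower signal with SEA than in media (69.9 and 185.5) beside an equal one with SEA/LPS and LPS (84.0 and 83.4). For Abcg1 it comes from SEA/LPS over LPS (550.8 and 316.5). Both comparisons are parts of the same 4 arrays and neither difference was tested.

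**Figure D3:**
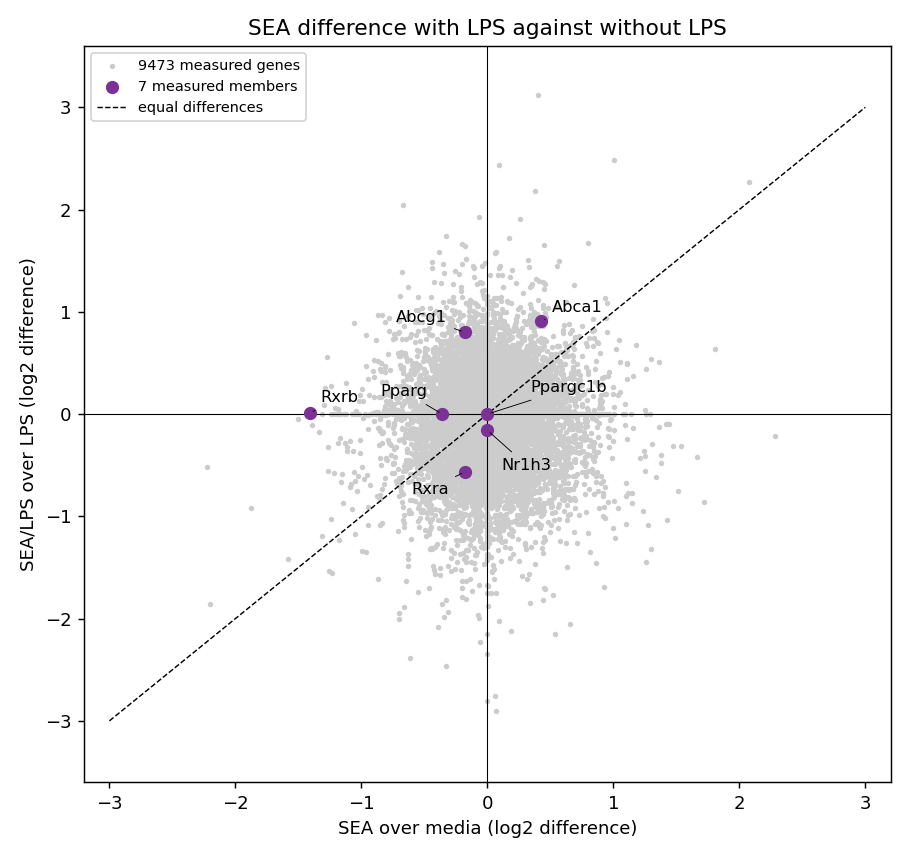
SEA/LPS over LPS (vertical axis) against SEA over media (horizontal axis), both log2 differences, for 9473 measured genes in grey and the 7 measured members in purple, with the line of equal differences dashed. Rxrb lies far left at -1.41 and near 0 on the vertical axis, and Abca1 and Abcg1 lie at 0.91 and 0.80 on it.

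The genes with the pattern most like a member's were taken over the 4 arrays, after removing each gene's mean log2, for the 2 members above the floor on all arrays that spanned 1 log2 or more. For Abcg1 these were Tfdp1, Btbd2 and Magel2, at distances of 0.045, 0.054 and 0.066 log2 among 7141 genes. For Rxrb they were Paqr4, Sh2b3 and Zfp316, at 0.300, 0.337 and 0.339. With 4 points per gene such closeness is a description.

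Genes around the members were read on 6 lists. On the first, LXR targets other than the 2 transporters, 0 of 14 measured genes passed 2-fold between SEA/LPS and LPS on the probe set that stands for the gene (1.39% of all genes higher, 3.47% lower). Of the 14, 8 lay above 0 and 6 below, and the median was 0.03 log2, against -0.008 for all genes, and it was -0.002 under quantile normalization. Srebf1, the lipogenic factor that LXR switches on, read 291.5 with SEA/LPS, 355.3 with LPS, 465.8 with SEA and 385.6 in media, and Mylip, which encodes a ligase that degrades the LDL receptor, read 436.5, 612.8, 448.5 and 529.2 on the same arrays. Both are among the 6 below 0, at -0.29 and -0.49 log2, and both were picked after their values were seen. The 8 above 0 were led by Scd2, a stearoyl-CoA desaturase gene, at 0.56. A second probe set of Pltp, a phospholipid transfer protein gene, read 195.3 with SEA/LPS against 441.7 with LPS, 2.26-fold lower, while the one that stands for it read -0.02 log2. With LPS over media Scd2 was 5.68-fold lower (100.3 with LPS and 570.2 in media). The median of the list was -0.09, or 0.01 when scaled to the 75th percentile, against -0.06 and 0.02 for all genes. Other probe sets of Scd2 read -1.99 and -0.28 log2. Scd2 was also 3.84-fold lower with SEA/LPS than in media, the only one of 14 past 2-fold on the probe set that stands for the gene. Of all genes 7.05% were lower and 4.54% higher. In this comparison the second probe set of Pltp read -1.09 log2. Of Tgm2, another gene of the list, probe sets 1455900_x_at and 1438942_x_at read 1.07 and 1.18, the latter a bound. The rest of its other probe sets read 0.13, 0.29 and 0.36. The list median for SEA/LPS over media was -0.26, against -0.12 for all genes.

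PPAR targets, which serve fatty acid uptake and oxidation, had 4 of 16 measured members lower and 1 higher with LPS than in media, against 8.43% and 6.06% of all genes. The lower ones were Mgll, a monoacylglycerol lipase (387.3 with LPS and 1476.9 in media), Acadm, a medium-chain acyl-CoA dehydrogenase (111.0 and 416.5), Cd36, a fatty acid receptor (1144.8 and 2650.3), and Acaa2, a mitochondrial thiolase (86.4 and 179.4). The higher one was Olr1, a receptor of oxidised lipoprotein (1561.8 and 609.5). Other probe sets of Mgll read -1.90, -1.17 and 0.44 log2 and those of Cd36 -0.61 and 0.26. The median was -0.54, against -0.06 for all genes, and stayed below 0 under every scaling tried. When scaled to the hybridisation controls it was -0.98, where the median of all genes was -0.56. With SEA/LPS over media Mgll (-1.33) and Acadm (-1.09) were lower and Olr1 (1.56) higher, against 7.05% and 4.54% of all genes. The median was -0.42, against -0.12 for all genes. Between SEA/LPS and LPS, Ucp3, a mitochondrial carrier, was 2.47-fold lower (35.3 with SEA/LPS and 87.2 with LPS). On the probe sets that stand for the genes it was the only 1 of 16 past 2-fold. Over all genes 3.47% were lower and 1.39% higher. In the list 10 of 16 members lay above 0 and 5 below, and the median was 0.24, against -0.008 for all genes.

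Sterol handling genes had 1 of 13 measured members higher and 3 lower with LPS than in media, against 6.06% and 8.43% of all genes. Ch25h, the enzyme that makes 25-hydroxycholesterol, was 13.1-fold higher with LPS (499.0 and 38.1) and 11.0-fold higher with SEA/LPS (420.9 and 38.1). Scarb1, a lipoprotein receptor, was 2.33-fold lower with LPS, Npc1, which exports cholesterol from lysosomes, 2.29-fold, and Lipa, lysosomal acid lipase, 2.09-fold. The other probe sets of Scarb1 read -0.49 and -0.55 log2. Both other probe sets of Lipa read lower too, at -1.30 and -1.07 log2. With SEA/LPS over media Scarb1 (-1.57), Npc1 (-1.20) and Srebf2, the factor that drives cholesterol synthesis (-1.15), were lower, against 7.05% of all genes. Ch25h was the only 1 higher, against 4.54%. The median was -0.41, against -0.12 for all genes. In this comparison the other probe sets of Scarb1 read -0.84 and -0.74 log2 and that of Srebf2 -0.81, short of 2-fold. Between SEA/LPS and LPS 0 of 13 passed 2-fold on the probe sets that stand for them. Of all genes 1.39% were higher and 3.47% lower, so this 0 lies near those shares. One other probe set of Hmgcs1, a cholesterol synthesis enzyme, was 2.55-fold higher with SEA/LPS (255.1 and 100.2). The median was -0.16, against -0.008 for all genes, or 0.08 when scaled to the hybridisation controls, against 0.11 for all genes.

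**Figure D4:**
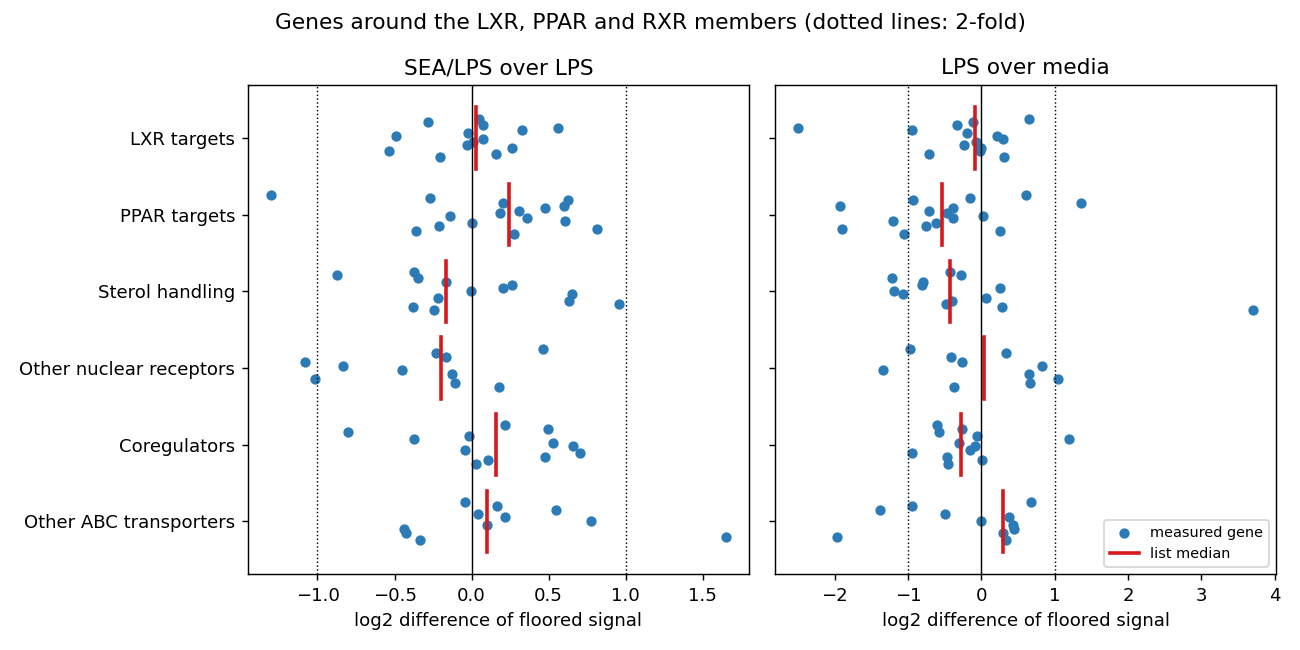
Log2 differences (horizontal axes) of the measured genes of 6 lists, for SEA/LPS over LPS on the left and LPS over media on the right, 1 point per gene, with list medians in red and dotted lines at 2-fold. PPAR targets have their LPS median at -0.54, and Ch25h stands apart at 3.71 among the sterol handling genes.

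Other nuclear receptors that pair with RXR or act beside it had 10 of 15 members measured, 1 lower and 1 higher with LPS than in media, near the 8.43% and 6.06% of all genes. With SEA/LPS over media 2 of the 10 were lower, Rara and Rarg, against 7.05% of all genes. Rara, a retinoic acid receptor, was 2.55-fold lower with LPS (45.5 and 115.8) and at least 3.48-fold lower with SEA/LPS (25.3 and 115.8). Nr4a1, an immediate early orphan receptor, was 2.06-fold higher with LPS than in media (100.3 and 48.6), and with SEA/LPS it was 2.02-fold below LPS (49.7 and 100.3). Rarg, another retinoic acid receptor, with SEA/LPS was 2.12-fold below its LPS signal (70.3 and 148.8) and 2.53-fold below media (70.3 and 178.1), and its second probe set read -0.71 and -0.68 log2, both bounds. The median of this list for LPS over media was 0.04, against -0.06 for all genes. When scaled to the hybridisation controls it was -0.46, against -0.56 for all genes. Between SEA/LPS and LPS 2 of the 10 were lower and 0 higher, against 3.47% and 1.39% of all genes. The list median there was -0.20, against -0.008 for all genes, and 0.04 under that scaling, against 0.11.

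Coregulators had 12 of 17 members measured, with 1 higher and 0 lower with LPS than in media, against 6.06% and 8.43% of all genes. Nrip1, a corepressor of nuclear receptors, was 2.30-fold higher with LPS than in media (430.8 and 187.6), and its other probe set read 1.07 log2. Pprc1, a relative of Ppargc1b, was 2.61-fold lower with SEA/LPS than in media (41.8 and 109.0) and within 2-fold with LPS. With SEA/LPS over media it was the only 1 of 12 past 2-fold on the probe set that stands for the gene. Over all genes 7.05% were lower and 4.54% higher. Ppargc1a, the closest relative, read 16.5 with SEA/LPS, 33.7 with LPS, 19.7 with SEA and 35 in media, at or near the floor throughout. The list median for LPS over media was -0.28, against -0.06 for all genes, and below 0 under every scaling tried.

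Other ABC transporters had 11 of 14 members measured, with 2 lower with LPS than in media and 0 higher, against 8.43% and 6.06% of all genes. Abca3, a phospholipid transporter known from lung surfactant, read 104.8 with SEA/LPS, 11.7 with LPS, 178.6 with SEA and 130.7 in media. The LPS array alone was under the floor, so Abca3 was at least 3.92-fold lower with LPS than in media, and SEA/LPS over LPS was higher by at least 3.15-fold. Its second measured probe set had the same signs, at -0.79 and 0.67 log2, both bounds. Abce1, a ribosome recycling factor, was 2.60-fold lower with LPS. The median of the list for LPS over media was 0.30, against -0.06 for all genes. When scaled to the hybridisation controls it was -0.17, against -0.56 for all genes. Between SEA/LPS and LPS Abca3 was the only 1 of 11 past 2-fold, against 1.39% of all genes higher and 3.47% lower. The list median there was 0.10, against -0.008 for all genes. With SEA over media 0 genes of all 6 lists passed 2-fold on the probe sets that stand for them. Of all genes 0.644% were higher and 0.633% lower, so this 0 lies near those shares. The list medians for SEA over media lay between -0.05 and 0.07 log2. The ABC transporter median, 0.004 as reported, was 0.39 with the floor at the 20th percentile and 0.22 with no floor. A second probe set of Med1, a Mediator subunit gene among the coregulators, was 2.22-fold higher with SEA than in media (90.6 and 40.9), while the one that stands for it read 0.06 log2. Of the 65 other measured probe sets of the 6 lists, those past 2-fold where the gene's own was not, or went the other way, numbered 1 higher and 0 lower for SEA over media, 2 and 4 for LPS over media, 2 and 1 for SEA/LPS over LPS and 4 and 4 for SEA/LPS over media.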

How the data were processed

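The 4 samples, 1 per group, were measured on 1-colour arrays whose probe sets carry Affymetrix names. The deposited unit is a linear intensity per probe set, judged from the values, already scaled by the authors to a common mean. Software and background step: not given in the sources used here. Such a scaling hides differences in total RNA and sets how many genes read as higher or lower. The number of arrays limits the precision.

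Probe sets were named through the platform annotation, with symbols taken by Entrez identifier from GRCm38.p6. Of 22690 probe sets, 20380 carried 1 symbol, 691 carried several and 1555 other than the 64 controls carried none, and those without exactly 1 symbol were left out. Signals were floored at the 40th percentile (33.3) and log2 was taken. The probe set with the highest mean stood for a gene, and a gene was measured with at least 1 array above the floor. Analyses used Python 3.11.15, pandas 2.3.3 and numpy 2.4.6, and the arithmetic of the 2-fold calls was checked on simulated data, which says nothing of the error between arrays.

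The alternatives were a floor at the 20th percentile, log2(signal + 16) with no floor, 3 scalings (the 75th percentile, quantile normalization and the 18 hybridisation control probe sets) and 2 rules for probe sets. The comparison of SEA/LPS with SEA was added after the values were seen. The members and lists were chosen with earlier results of these data known. From each list the text names every gene at least 2-fold different, up to 6 per comparison. Srebf1, Mylip, Ppargc1a and the markers lie outside that rule, their values having been seen first.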

Additional observations from a re-analysis of the deposited data

Results flagged for a closer look

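On 2 member probe sets, both above the floor on every array, the SEA difference had one sign without LPS and the other with LPS. With 1 array in each group this was not tested. For Abcg1 the SEA difference with LPS minus that without was 0.98 (0.80 and -0.18). For Abca1 it was 0.70 on probe set 1421839_at (0.58 and -0.12), while the brighter probe set 1421840_at lay above 0 in both. For Rxrb the same value was 1.42 log2 (0.01 and -1.41), where SEA/LPS and LPS were nearly equal and no reversal is read.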

How the results depend on the processing

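No paired analysis was possible because each group has 1 array. With the floor at the 20th percentile, 2 members were lower with SEA (1 as reported), against 3.19% of all genes. Under that floor 1 member was higher with LPS (0 as reported), against 9.4%. Scaling to the hybridisation controls put 2 members higher with SEA/LPS than with LPS (0 as reported), against 3.14% of all genes. For members lower with SEA/LPS than in media (2 as reported), the 75th percentile and quantile normalization each left 1, against 4.51% and 4.97%. The lower floor and no floor each gave 3 by adding Pparg, against 10.7% and 5.86%. The mean over probe sets and the rule without those ending in _x_at, _s_at or _a_at gave 3 by adding Rxra, against 5.47% and 7.26%. Members lower with LPS than in media (3 as reported) were 4 with the lower floor and no floor (Pparg added), against 11.2% and 6.83%. Without those endings they were 4 too (Rxra added), against 8.58%.

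Counts over all genes moved more, given as higher and lower. For SEA over media (61 and 60 as reported) they were 438 and 366 with the lower floor, 173 and 124 with no floor and 37 and 37 with the mean over probe sets, and 103 were lower under the hybridisation controls. For LPS over media (574 and 799) they were 1078 and 1290 with the lower floor and 284 and 2431 under the hybridisation controls. For SEA/LPS over LPS (132 and 329) they were 491 and 949 with the lower floor and 299 and 134 under the hybridisation controls, with 211 higher without a floor and 84 higher with the mean over probe sets. For SEA/LPS over media (430 and 668) they were 729 and 1231 with the lower floor, with 427 lower at the 75th percentile and 1462 lower under the hybridisation controls.

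The share of calls that were higher was 41.8% for LPS over media, 55.4% at the 75th percentile and 10.5% under the hybridisation controls. For SEA/LPS over LPS it was 28.6%, and 39.5%, 43.3% and 69.1% at the 75th percentile, under quantile normalization and under the hybridisation controls. For SEA/LPS over media it was 39.2%, and 58.6%, 52.0% and 16.5%. The hybridisation controls moved the median of all genes to -0.56 for LPS over media and -0.42 for SEA/LPS over media. The cause of these shifts was not tested. No member past 2-fold changed sign under any of the 7 alternatives. Without probe sets ending in _x_at, _s_at or _a_at, Rxra is read on 1454773_at, and its LPS difference over media is -2.14.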
